A study of Mus musculus with 17 samples.

Results

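The mRNAs of 42 genes were followed in mouse liver: nuclear receptors other than the clock and bile acid receptors, together with coregulators that bind them. The rule that lists them goes by symbol, though earlier results of these data were known when they were chosen, and all 42 were found among the 24676 genes of the normalized count table. Of these, 38 passed a filter on low values, at least 10 normalized counts in at least 4 libraries, and were tested. Hnf4g, Nr4a2, Nr4a3 and Vdr did not pass it and are given only by level.

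RNA sequencing had been done on 17 libraries from the livers of 11-week-old males. Their strain was mixed, and all carried floxed Gata4 alleles (Gata4 fl/fl). Controls had received an empty AAV8 vector at 10 weeks of age, and the mice labelled Gata4LKO had received AAV8-Tbg-Cre, whose promoter drives Cre in hepatocytes, so that the other cell types of the liver keep their alleles. 1 week later mice of both kinds had been given GW3965 by gavage at 40 mg/kg, 17 h and again 8 h before they were killed after a 4 h fast, or dimethylsulfoxide in canola oil as vehicle. There were 4 control vehicle libraries (replicates 1 to 4), 4 labelled Gata4LKO with vehicle (5 to 8), 4 control GW3965 libraries (9, 10, 12 and 13) and 5 labelled Gata4LKO with GW3965 (14 to 18). The design thus asked how the agonist acts in each genotype and how the genotypes differ under each treatment.

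Nuclear receptors are transcription factors, many of which are switched by a small lipid-soluble ligand such as an oxysterol, a fatty acid, a steroid or thyroid hormone. Many bind DNA as a dimer with a retinoid X receptor (RXR), on repeats of a short hexamer, and exchange corepressors such as NCOR1 for coactivators of the NCOA and PGC-1 families when ligand binds. In the liver they set much of lipid, bile acid, glucose and drug metabolism. GW3965, a synthetic ligand, activates both liver X receptors, LXR alpha (gene Nr1h3) and LXR beta (Nr1h2), which sense oxysterols and act as heterodimers with RXR alpha (Rxra).

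Promoters of both LXR genes and of Rxra are shown because their mRNA levels under GW3965 are the first described. Of the 42 genes, 36 had a promoter entry in the RefSeq-derived table (build GRCm38.p6), and the 250 bases before the start were searched on both strands for AGGTCA, the hexamer that many receptors bind; matches are in capitals. The first listed Nr1h3 window is chr2:91195117-91195366 and the Nr1h2 window chr7:44553966-44554215, both on the minus strand, and each holds 0 matches, as does the second listed Nr1h3 window. Rxra has 2 listed starts on the plus strand. The window of the first, chr2:27676951-27677200, holds 0 matches. That of the second, chr2:27709042-27709291, is printed because it holds 2 matches, the first of them read on the other strand.
Nr1h3: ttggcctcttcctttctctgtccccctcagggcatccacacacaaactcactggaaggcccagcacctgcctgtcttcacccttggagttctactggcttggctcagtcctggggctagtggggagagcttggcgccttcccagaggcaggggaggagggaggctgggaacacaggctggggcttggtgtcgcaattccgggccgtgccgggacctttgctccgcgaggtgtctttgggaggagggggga
Nr1h2: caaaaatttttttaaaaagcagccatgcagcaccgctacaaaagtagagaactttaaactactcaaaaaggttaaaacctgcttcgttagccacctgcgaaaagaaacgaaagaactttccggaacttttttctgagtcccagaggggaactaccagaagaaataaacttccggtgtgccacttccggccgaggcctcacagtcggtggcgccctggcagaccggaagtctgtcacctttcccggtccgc
Rxra: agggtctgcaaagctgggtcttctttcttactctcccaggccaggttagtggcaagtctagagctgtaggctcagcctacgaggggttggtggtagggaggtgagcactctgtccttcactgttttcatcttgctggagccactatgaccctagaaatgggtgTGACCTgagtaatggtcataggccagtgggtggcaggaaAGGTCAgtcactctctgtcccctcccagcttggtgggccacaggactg
The hexamer was present for 7 of the 36 genes (19.4%): Rxra, Rxrg, Pparg, Nr5a2, Rarg, Thrb and Nr6a1. Over all 27025 genes of the table the share was 15.8%. The direct repeat with 4 bases between, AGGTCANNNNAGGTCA, on which LXR and RXR are known to bind, was found for 0 of the 36 and for 4 of all genes (0.0148%). Among 9 LXR targets outside the 42 genes, 0 held a match to the hexamer or the repeat, so the search does not set LXR targets apart. Such a match is a description of letters, not a measured binding site.

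Between 11.8 and 22.05 M reads per library were recovered from the normalized values. Mitochondrially encoded mRNAs made up 6.06% to 7.26% of the counts of 12 libraries and 15.6% to 32.6% of 5. Those 5 were control vehicle replicate 1, control GW3965 replicates 10 and 13, and replicates 17 and 18 labelled Gata4LKO with GW3965, that is 4 of 9 GW3965 libraries and 1 of 8 vehicle libraries. The 8 hepatocyte markers, Alb and Ttr among them, summed to at least 1.32e+06 normalized counts in every library. Counts of Gata4 overlapped between genotypes, at 194 ± 44.2 (SD, n = 4) against 153 ± 27.3 (n = 4) in controls with vehicle and at 219 ± 41.2 (n = 5) against 221 ± 44.1 (n = 4) with GW3965. The sources used here do not say which exons are removed, so the whole-gene counts do not check the genotype label. In 8 libraries the treatment tag goes against the title, and groups follow the titles. A transcript that splits the libraries across the groups, Gm5345, was below 10 normalized counts in all 4 vehicle libraries labelled Gata4LKO and in control GW3965 replicates 9 and 10. It was so in no other library. In vehicle this split and genotype cannot be told apart, nor can this split and treatment in libraries labelled Gata4LKO. Within groups it varied in control GW3965 alone, so as a covariate its effect rests on replicates 9 and 10 against 12 and 13.

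Per kilobase of exon, the most abundant of the 42 mRNAs was Hnf4a, a receptor that maintains hepatocyte identity, with a median over the 17 libraries of 2210.3 normalized counts per kb and a range of 1782 to 3031. Next came Nr1i3, encoding the drug-sensing receptor CAR, at 1949 (1193 to 2480.0), Rxra at 1337 (771 to 1540) and Ppara, encoding the fatty acid receptor of fasting, at 1045 (675 to 1360.4). The ranges of Hnf4a and Nr1i3 overlapped, as did those of Rxra and Ppara. The length used is the union of the exons of all annotated transcripts, 4.83 kb for Hnf4a and 4.41 kb for Nr1i3. Their longest transcripts are 4.36 kb and 2.98 kb, and by that length the median of Nr1i3 stood above that of Hnf4a. Nr1i2, encoding the drug sensor PXR, stood at 667 normalized counts per kb and was at 485 at its lowest. Nr1h3 stood at 353 (246 to 412), below the lowest Nr1i2 value by the union length. Nr1h2, the LXR of most tissues, was at 101.1 (61.5 to 139), below the whole range of Nr1h3. The glucocorticoid receptor gene Nr3c1 was at 297 (247 to 352), overlapping Nr1h3.

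Among coregulators, the corepressor gene Ncor1 was the highest per kb, at a median of 189.8 (176 to 405). The coactivator genes Ncoa2 at 93.2 and Ncoa3 at 77.8 stood above Ncoa1 at 53.2 and Ncoa5 at 33.4. Ppargc1a, the fasting-induced coactivator PGC-1 alpha, was at 68.2 (30.9 to 125). At the low end, Nr4a1, an immediate early receptor gene, was at 3.61 normalized counts per kb and Nr2f1, encoding COUP-TF1, at 3.03. Hnf4g had 0 to 16.7 normalized counts per library, Nr4a2 0 to 9.63, and Nr4a3 0 to 5.05. Vdr, the vitamin D receptor gene, was at 0 in 12 of 17 libraries and at most at 1.64. In such bulk samples, fewer cells of a type and less RNA per cell cannot be told apart.

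**Figure D1:**
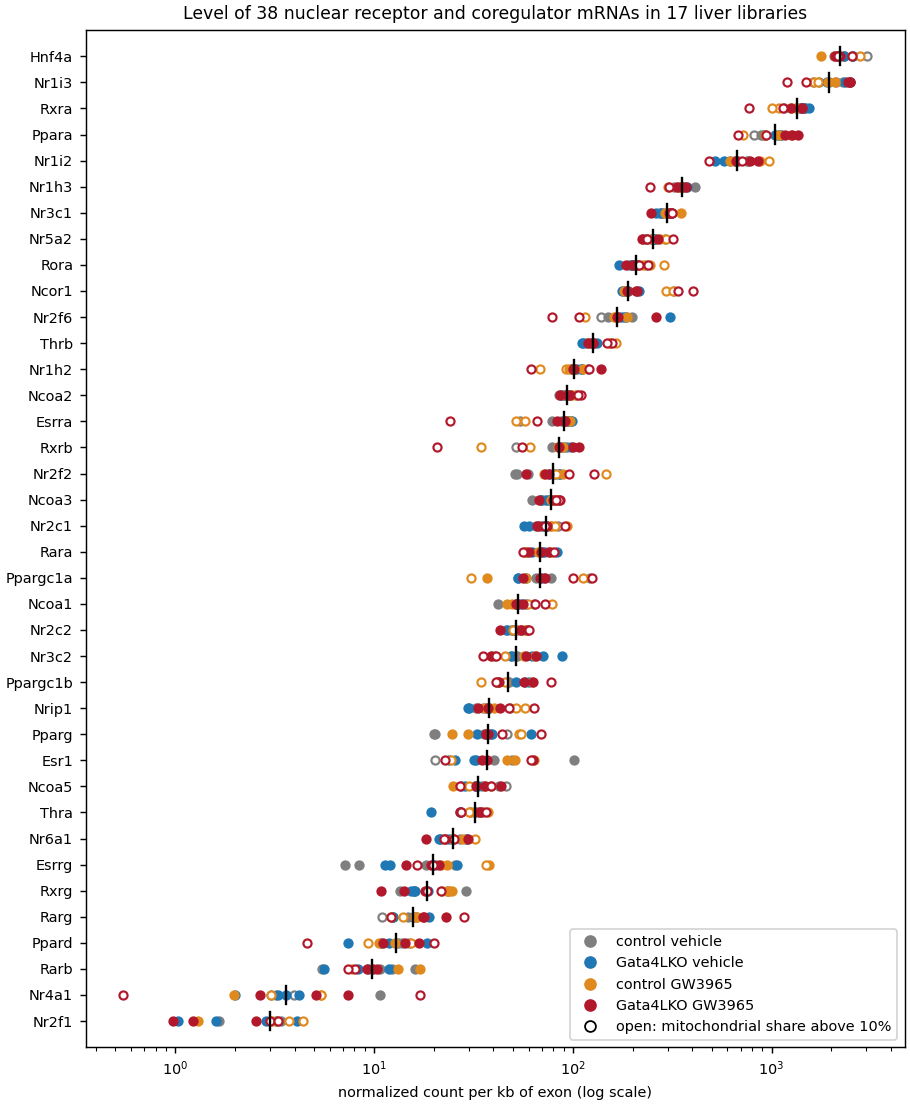
Normalized counts per kb of exon (log scale) of the 38 tested mRNAs, one row a gene and one point a library, with a vertical tick at the median of 17 libraries; open points are the 5 libraries with a mitochondrial share above 10%. Hnf4a (median 2210.3) and Nr1i3 (1949) head the order and Nr2f1 (3.03) ends it, and in Rxrb and Esrra open points lie to the left of the filled ones.

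GW3965 against vehicle was first taken as the mean of the differences in both genotypes, which uses all 17 libraries. The test was limma's on log2(normalized count + 1), with Benjamini-Hochberg adjustment over 13379 genes and a threshold of 0.05. Of the 38 tested mRNAs 0 were called, where 1.78% of all genes were. At an unadjusted p under 0.05 there were 7 (18.4%), against 15.3% of all genes. edgeR and DESeq2 on reads recovered from the normalized values also called 0, each with 7 at an unadjusted p under 0.05. The median log2 difference was 0.06 over the 38 and -0.01 over all genes, with 24 of the 38 positive, where 48.9% of all genes were.

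Of the LXR mRNAs, Nr1h3 varied little and Nr1h2 more. Nr1h3 had normalized counts of 816, 908, 1037 and 903 in control vehicle and 860.1, 854, 898 and 759.8 in control GW3965 libraries. In libraries labelled Gata4LKO it had 872, 892, 889 and 941 with vehicle and 838, 892, 939, 619 and 770.1 with GW3965. The groups overlapped in both genotypes, and the lowest value of all, 619, was in replicate 17, the library with the highest mitochondrial share. The mean log2 difference was -0.14 ± 0.08 (SE; limma adjusted p = 0.432), with a 95% interval from -0.31 to 0.04, or 0.804-fold to 1.03-fold. Without replicate 17 it was -0.09. Nr1h2 ran from 329.6 to 354 in control vehicle, 337 to 403 in labelled Gata4LKO vehicle, 231 to 378 in control GW3965 and 206 to 467 in labelled Gata4LKO GW3965 libraries. Its mean log2 difference was -0.14 ± 0.13 (limma adjusted p = 0.622, interval -0.42 to 0.14), so a change of 2-fold lay outside the interval of both LXR mRNAs. The Nr1h2 difference turned to 0.034 ± 0.10 without the 5 libraries of high mitochondrial share, and was -0.07 without control GW3965 replicate 13 and -0.05 without replicate 17.

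Rxra, the common dimer partner, had 6282, 7229, 7887 and 8069.8 normalized counts in control vehicle and 6838, 5947, 7303 and 5505 in control GW3965 libraries. With the Gata4LKO label it had 7606, 8016, 8411 and 7679 with vehicle and 7796, 6819.8, 7804, 4212 and 6258 with GW3965. Groups overlapped in both genotypes, and the 5 lowest values, 4212 to 6282, came from the 5 libraries in which that share was high. The mean log2 difference was -0.25 ± 0.11 (limma adjusted p = 0.290), and -0.11 ± 0.06 without those 5 libraries. Rxrb was at -0.37 ± 0.27 with all libraries and at 0.07 ± 0.08 without the 5. Rxrg, the least abundant RXR mRNA, was at 0.12 ± 0.17.

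The lowest p of the set belonged to Thrb, the thyroid hormone receptor beta gene and the main thyroid hormone receptor of hepatocytes. Its normalized counts were 945, 924, 923 and 863 in control vehicle and 1139, 1220.0, 899 and 1139.8 in control GW3965 libraries, and 906, 982, 828 and 838 against 883, 934, 936, 1174 and 1104 with the Gata4LKO label. The 4 libraries with a high mitochondrial share among those given GW3965 held 4 of its 5 highest values. The mean log2 difference was 0.22 ± 0.08 (limma adjusted p = 0.205) and 0.11 ± 0.07 without the 5 libraries. Nrip1, encoding the corepressor RIP140, had 374 to 556 normalized counts in control vehicle and 414, 657, 459 and 595 in control GW3965 libraries, and 342 to 434 against 497, 431, 382, 547 and 729.9 with the Gata4LKO label, so that groups overlapped. It was at 0.33 ± 0.13 (limma adjusted p = 0.247) and at 0.15 ± 0.09 without them.

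Esrrg, encoding estrogen-related receptor gamma, an orphan receptor of energy metabolism, was the other of the 3 with the lowest p. It had 159, 52.3, 44.5 and 114 normalized counts in control vehicle and 235, 136, 144 and 227 in control GW3965 libraries. In libraries labelled Gata4LKO it had 127, 163, 74.7 and 71.0 with vehicle and 121, 89.9, 132, 102 and 124 with GW3965. Values thus spread over 3-fold within control vehicle and overlapped between treatments in both genotypes. The mean log2 difference was 0.64 ± 0.24 (limma adjusted p = 0.215), and 0.82 ± 0.28 without the 5 libraries.

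For 36 of the 38 mRNAs the 95% interval of this mean difference lay wholly within a 2-fold change either way, against 83.9% of all genes. The exceptions were Esrrg, whose interval reached 1.15, and Nr4a1, whose counts of 1.93 to 60.3 left the widest interval. The fatty acid receptor gene Ppara was at 0.05 ± 0.13 (interval -0.24 to 0.33), Nr1i2 at 0.17 ± 0.11, Nr1i3 at -0.11 ± 0.14, Hnf4a at -0.12 ± 0.10 and Nr3c1 at 0.07 ± 0.07. Without the 5 libraries Ppara was further from 0, at 0.28 ± 0.08 (limma adjusted p = 0.127). Its adjusted p ran from 0.121 to 0.997 over 10 alternative settings, and none of the 10 brought any of the 38 past the threshold in this comparison.

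The other mRNAs are given by role, as the log2 difference with GW3965 in the mean of both genotypes. Pparg, encoding the adipogenic fatty acid receptor, had 59.0 to 204 normalized counts per library and was at 0.23 ± 0.22, and Ppard at -0.08 ± 0.24. Among orphan receptors, Nr5a2, encoding LRH-1, which acts on bile acid synthesis genes, had 1323 to 1883 normalized counts and was at 0.03 ± 0.08. The testicular receptor genes Nr2c1 and Nr2c2 were at 0.18 ± 0.09 and 0.11 ± 0.08, and Nr2f6, encoding EAR2, at -0.29 ± 0.20. The estrogen receptor alpha gene Esr1 had 278, 1393, 552 and 678 normalized counts in control vehicle libraries and was at 0.25 ± 0.28. The retinoic acid receptor genes Rara, Rarb and Rarg were at -0.05 ± 0.10, 0.11 ± 0.22 and 0.24 ± 0.16, and Thra at 0.14 ± 0.12. Rora was at 0.17 ± 0.08 and the germ cell nuclear factor gene Nr6a1 at 0.05 ± 0.11. Of the coactivators, Ppargc1b was at 0.04 ± 0.14, Ncoa1 at 0.13 ± 0.11 and Ncoa2 at 0.09 ± 0.07. The limma adjusted p of all 38 ran from 0.205 to 0.982.

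**Figure D2:**
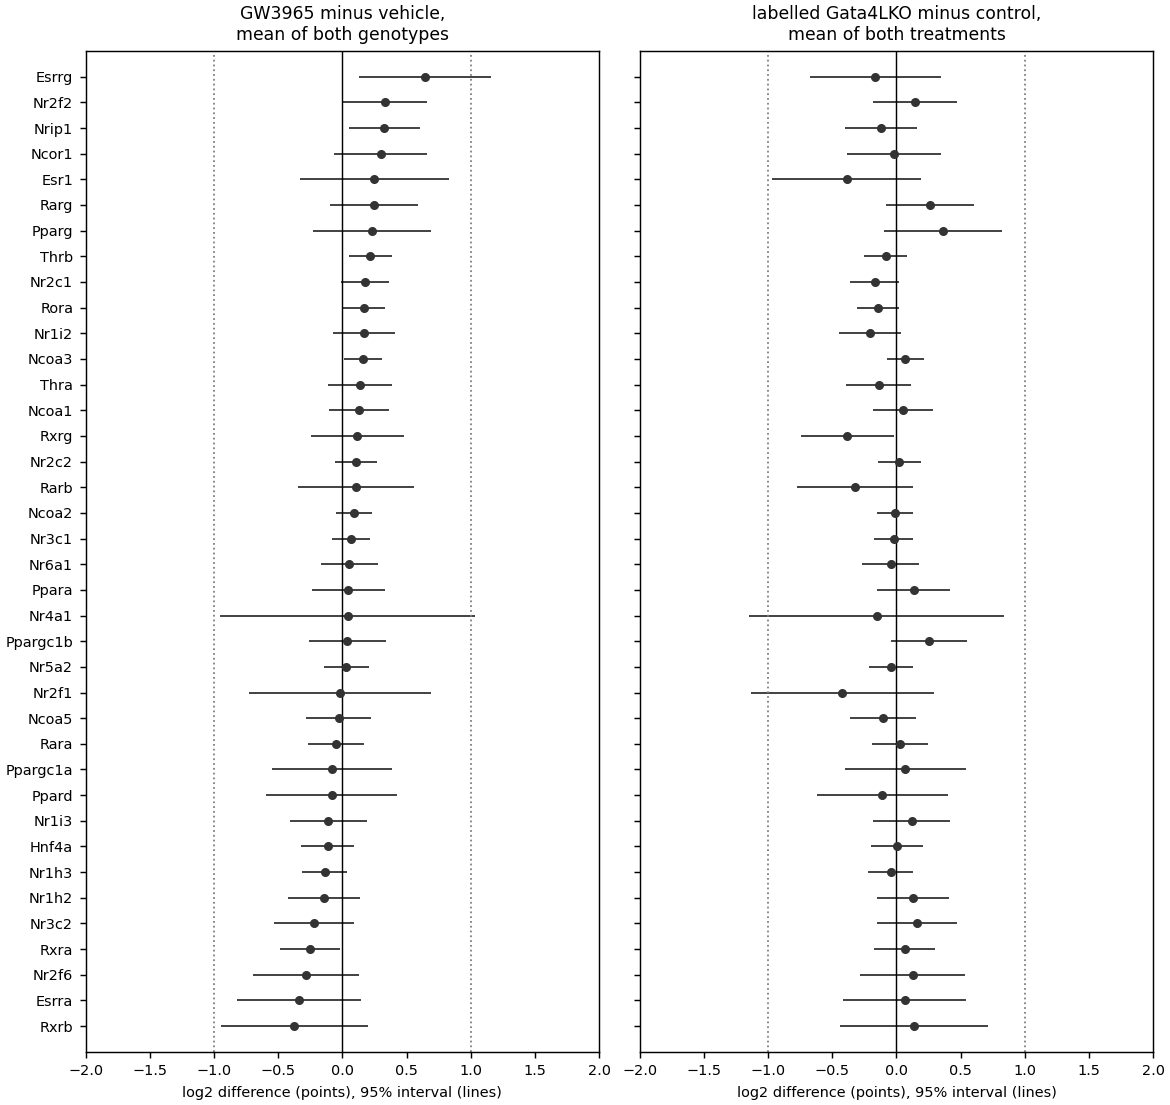
Log2 differences of the 38 tested mRNAs with 95% intervals, for GW3965 minus vehicle as the mean of both genotypes (left) and for libraries labelled Gata4LKO minus control as the mean of both treatments (right); dotted lines mark 2-fold. All but 2 intervals in each panel stay between the dotted lines, the exceptions being Esrrg and Nr4a1 on the left and Nr2f1 and Nr4a1 on the right.

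In control mice alone, GW3965 against vehicle also gave 0 calls among the 38, where 0.792% of all genes were called; edgeR and DESeq2 on recovered reads called 0 here and in each of the comparisons that follow. There were 4 mRNAs with an unadjusted p under 0.05 (8.96% of all genes). Here Esrrg differed by 1.15 ± 0.35 on the log2 scale (limma adjusted p = 0.203, interval 0.40 to 1.89). Leaving out control vehicle replicate 1, the highest Esrrg library of its group at 159, gave 1.47 and an adjusted p of 0.0505, the lowest of any in 200 pairs of setting and comparison; over all 17 fits that each leave out 1 library it ran from 0.0505 to 0.603. In the authors' deposited table of this comparison the adjusted p of Esrrg was 0.146.

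Nr2f2, encoding COUP-TFII, which in liver is expressed also by endothelial and stellate cells, had 688, 441, 454 and 517 normalized counts in control vehicle and 773, 1262, 622 and 708 in control GW3965 libraries. One control vehicle library, replicate 1, lay within the GW3965 values. The log2 difference was 0.65 ± 0.23 (limma adjusted p = 0.307). Over the same libraries the summed counts of 12 liver sinusoidal endothelial markers were 5672 to 6063 with vehicle and 5722 to 9497 with GW3965, and those of 12 stellate cell and fibroblast markers 3648 to 4895 and 4064 to 5075. Their part in the Nr2f2 values was not tested. Ncoa3, encoding the coactivator SRC-3, had 492 to 576 with vehicle and 614 to 663 with GW3965 and was the 1 mRNA of the 38 whose 2 groups did not overlap here, where 5.84% of all genes did not. Its difference was 0.24 ± 0.10 (limma adjusted p = 0.470).

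In libraries labelled Gata4LKO, GW3965 against vehicle again gave 0 calls, where 0.247% of all genes were called, and 2 with an unadjusted p under 0.05 (12% of all genes). Nr3c2, the mineralocorticoid receptor gene, had 406, 572, 459.7 and 315 normalized counts with vehicle and 377, 252, 425, 229 and 267 with GW3965. Groups overlapped, and the log2 difference was -0.51 ± 0.20 (limma adjusted p = 0.341). With low Gm5345 as a covariate, a split that cannot be told apart from treatment in these libraries, it was 0.0019. Nrip1 was at 0.40 ± 0.18 (limma adjusted p = 0.400) and Rxra at -0.30 ± 0.15 (limma adjusted p = 0.438). Without replicate 17, which holds the lowest Rxra count, 4212, Rxra was at -0.15, and without replicate 18 Nrip1 was at 0.26. Esrra, the estrogen-related receptor alpha gene, was the 1 mRNA without overlap between the groups (5.25% of all genes), at 409 to 436 with vehicle and 106 to 404 with GW3965; its 2 lowest values, 106 and 291, were those of replicates 17 and 18. Esrrg, in contrast to its values in controls, was at 0.14 ± 0.34, and the interaction below gives the test of that contrast.

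Between genotypes under vehicle, 0 of the 38 were called, where 0.0149% of all genes were, and 1 had an unadjusted p under 0.05 (6.15% of all genes). That was Nr3c2, with 321, 336, 339 and 264 normalized counts in controls and the 315 to 572 given above with the Gata4LKO label, a log2 difference of 0.45 ± 0.21 (limma adjusted p = 0.812). With low Gm5345 as a covariate, whose effect is estimated within control GW3965 libraries alone, it turned to -0.061. Nr2f2 was next, at 441 to 688 in controls against 736, 704, 749 and 658 with the label, or 0.46 ± 0.23 (limma adjusted p = 0.824). Without the 5 libraries of high mitochondrial share, of which control vehicle replicate 1 had held the 688, it was at 0.60 ± 0.11 with an adjusted p of 0.0643; with low Gm5345 as a covariate it turned to -0.11, and over 11 alternatives the adjusted p ran from 0.0643 to 1.00. Over the same groups the summed endothelial markers were 5672 to 6063 and 5436 to 6579. Summed Kupffer cell and macrophage markers did not overlap, at 2639.8 to 3649.6 in controls and 4459 to 5349 with the label, with 12 of 12 positive and a median log2 difference of 0.56, against -0.01 over all genes. Nor did summed hepatocyte markers, at 1.79e+06 to 2.04e+06 and 1.46e+06 to 1.70e+06, with 8 of 8 negative and a median of -0.23; none of these 20 markers was called by limma. Their part in the genotype values was not tested. Ncoa5, encoding a receptor coactivator, had 203, 186, 144 and 153 normalized counts in controls and 142, 126, 121 and 146 with the label, with 1 value of each group inside the range of the other, and was at -0.35 ± 0.18 (limma adjusted p = 0.832). No mRNA of the 38 had groups without overlap here, where 6.58% of all genes did.

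Between genotypes under GW3965, 0 of the 38 were called, where 0.0598% of all genes were. The interval of this difference lay within 2-fold for 33 of the 38. Rxrg, Esrrg, Ppargc1a, Nr2f1 and Nr4a1 are thus not bounded at that size. Of the 38, 1 had an unadjusted p under 0.05 (6.47% of all genes). Rxrg had 56.7, 55.0, 54.2 and 50.5 normalized counts in controls and 41.6, 32.7, 24.9, 50.1 and 42.4 with the Gata4LKO label. Its groups did not overlap, by a margin of less than 1 count, and the log2 difference was -0.52 ± 0.24 (limma adjusted p = 0.743). Esrrg did not overlap either, at 136 to 235 in controls and 89.9 to 132 with the label (-0.67 ± 0.34, limma adjusted p = 0.814); these were 2 of 38, where 1.96% of all genes had no overlap. Ppargc1a had 383, 204, 244 and 744 in controls and 449.9, 478, 369.8, 825 and 665 with the label, a difference of 0.63 ± 0.31 (limma adjusted p = 0.790). It was 0.38 without control GW3965 replicate 10 and 1.00 without replicate 13, and its adjusted p ran from 0.257 to 0.998 with 1 library left out. Summed stellate cell and fibroblast markers did not overlap between these groups, at 4064 to 5075 in controls and 5236 to 7565 with the label. Summed endothelial markers overlapped, at 5722 to 9497 and 6034 to 10036, as did Kupffer cell and macrophage markers. Their part in these genotype values was not tested. Averaged over both treatments, 0 of the 38 were called, where 0.224% of all genes were, and 1 had an unadjusted p under 0.05 (7.19% of all genes). Rxrg (-0.38 ± 0.17), Nr2c1 (-0.17 ± 0.09) and Rora (-0.15 ± 0.08) had the lowest p. Nr2c1 had 299.9 to 434 normalized counts in the 8 control libraries and 264 to 420.1 in the 9 labelled Gata4LKO, and Rora, a receptor of circadian and lipid genes, 2515 to 3774 and 2234 to 3141. The limma adjusted p of these 3 ran from 0.656 to 0.773, and 36 of the 38 intervals lay within 2-fold, against 86.3% of all genes.

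The interaction, which tests whether the response to GW3965 differed between genotypes, gave 0 calls among the 38, where 0.0149% of all genes were called, and 1 unadjusted p under 0.05 (4.65% of all genes). Ppargc1a was at 1.12 ± 0.45 (limma adjusted p = 0.976). Its responses were -0.64 ± 0.32 in controls, from values of 809, 512, 473 and 432 with vehicle, and 0.48 ± 0.31 with the Gata4LKO label, from 385, 351, 349.7 and 458 with vehicle. The 3 highest Ppargc1a values under GW3965, 744, 825 and 665, and the highest under vehicle, 809, were all in libraries with a high mitochondrial share, as was the lowest of all, 204. Without the 5 such libraries the interaction was 0.79 ± 0.24. Esrrg was at -1.01 ± 0.49 and Nr2f2 at -0.64 ± 0.31, both with a limma adjusted p of 0.997; without control GW3965 replicate 10 Nr2f2 was at -0.42. For 25 of the 38 the interval of the interaction lay within 2-fold, against 57.6% of all genes, so the remaining 13, Esrrg, Ppargc1a and Nr2f2 among them, are not bounded at that size.

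**Figure D3:**
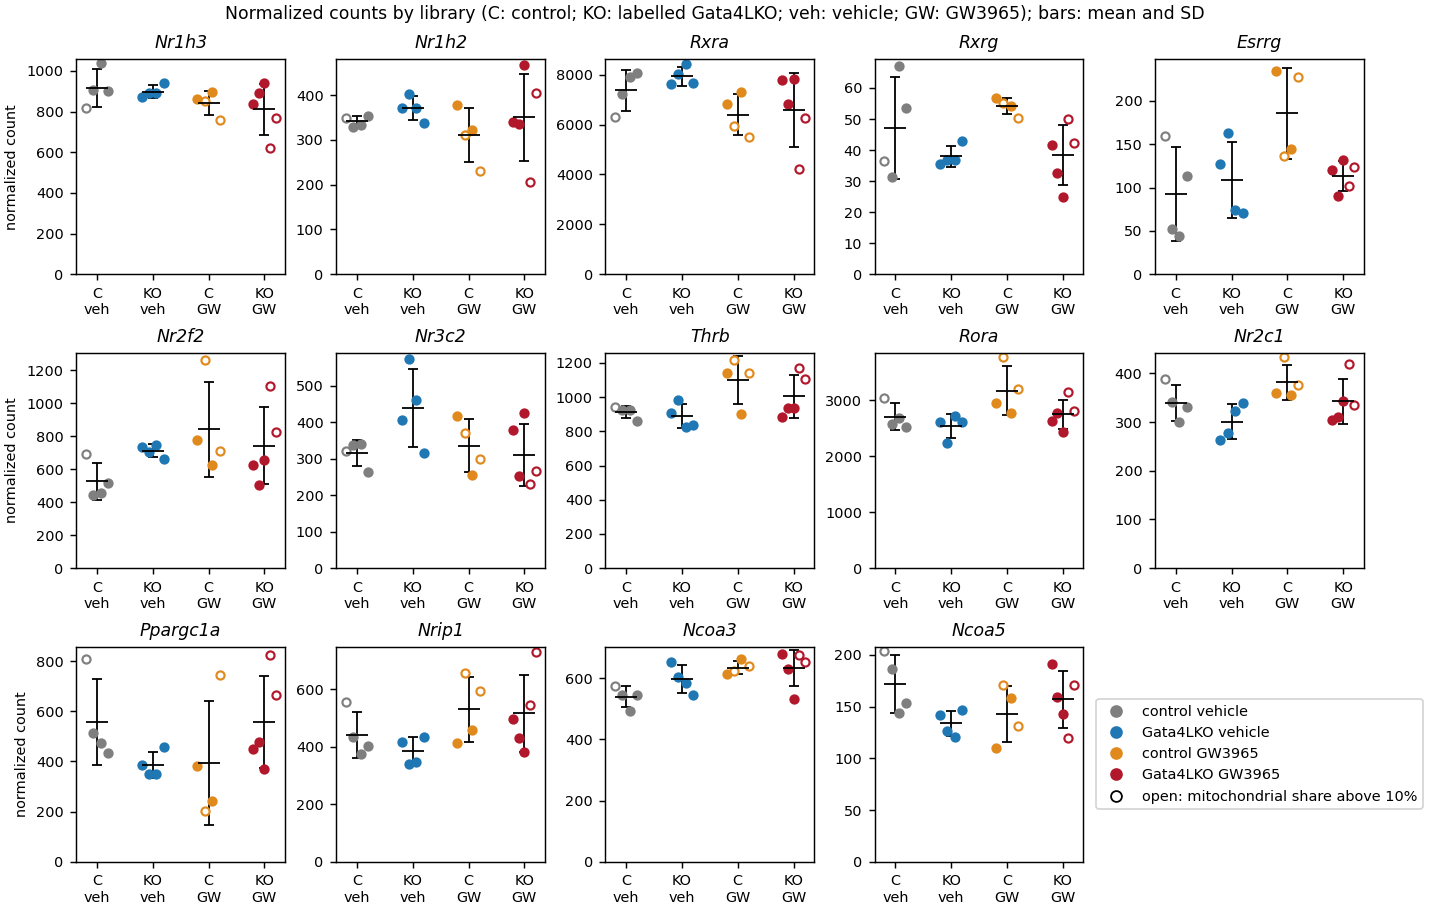
Normalized counts in each of the 17 libraries for the 14 mRNAs described in full, by group (C: control; KO: labelled Gata4LKO; veh: vehicle; GW: GW3965), with bars for the mean and SD and open points for libraries with a mitochondrial share above 10%. Nr1h3 lies between 619 and 1037 in all groups, Esrrg is highest in control GW3965 (136 to 235), and Ppargc1a has its highest values in open points.

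Values of 6 of these mRNAs did not overlap between the 5 libraries of high mitochondrial share and the other 12. Ncor1 had 3787 to 5189 normalized counts in the 5 libraries of high share and 2255 to 2750.2 in the other 12. Nrip1 had 547 to 729.9 against 342 to 497, and Ncoa1, encoding the coactivator SRC-1, had 510.1 to 672 against 363 to 499. In the other direction, Rxrb had 82.9 to 243 against 313 to 428, Esrra 106 to 291 against 347 to 436, and Rxra 4212 to 6282 against 6819.8 to 8411. These 3 above and 3 below, of 38, made 7.89% each, where 6.05% of all genes had all 5 libraries above the other 12 and 4.44% below.

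Transcripts of the 3 that were higher were 7.33 to 9.04 kb long with 43.6% to 48.7% GC, and those of the 3 that were lower were 2.49 to 4.91 kb with 50.3% to 61.4% GC. Across the 38 mRNAs, which all come from the same 17 libraries, Spearman's rho between the difference and GC content of the transcript was -0.47, and across all 13373 genes with a GC value -0.34. With transcript length rho was 0.46 across the 38 and 0.09 across all genes. Of the 5 libraries 4 had received GW3965. In the mean over both genotypes the GW3965 difference of Ncor1 went from 0.30 ± 0.17 to 0.04 ± 0.06 without the 5 libraries and that of Esrra from -0.34 ± 0.23 to -0.0012 ± 0.07. Within groups, the median SD of log2 values was 0.294 over the 38 and 0.321 over all genes. Without the 5 libraries it was 0.172 and 0.230. The steadiest were Ncoa2 and Ncoa3, each with an SD of 0.107, and Nr3c1 with 0.125, and the most variable was Nr4a1 with 1.06.

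**Figure D4:**
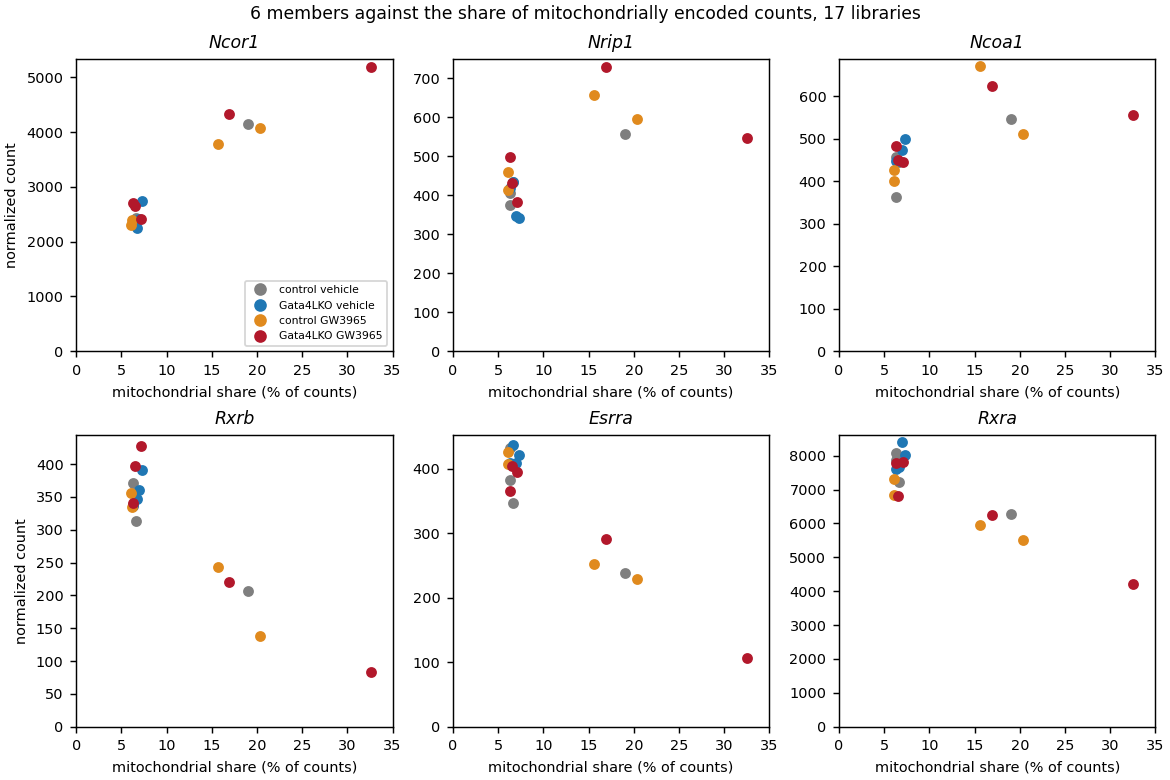
Normalized counts of 6 mRNAs (vertical axes) against the percentage of normalized counts from mitochondrially encoded genes (horizontal axes), one point a library, coloured by group. Ncor1, Nrip1 and Ncoa1 are higher, and Rxrb, Esrra and Rxra lower, in all 5 libraries above 15% than in the 12 below 8%.

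Genes known as targets of these receptors moved in the same libraries. Averaged over both genotypes, 13 of 14 LXR target mRNAs rose with GW3965, where 1.78% of all genes were called. The median log2 difference of the list was 1.24 against -0.01 over all genes, and 12 rose without the 5 libraries of high mitochondrial share. Leaving out any 1 library left 13 called in that mean. In controls alone 12 were called (0.792% of all genes), and 4 without control GW3965 replicate 10. With the Gata4LKO label 5 were called (0.247% of all genes), and 2 to 8 with 1 library left out. In the mean of both genotypes the lowest p were those of Scd2, a fatty acid desaturase (2.46 ± 0.14, limma adjusted p = 1.61e-08), and of the sterol and cholesterol exporters Abcg8 (1.29 ± 0.13), Abcg1 (1.66 ± 0.20) and Abca1 (1.00 ± 0.13). Among PPARA targets 9 of 19 rose, with a median of 0.78. The count was 7 without the 5 libraries, 5 with low Gm5345 as a covariate and 6 to 9 with 1 library left out. The 9 included the peroxisomal fatty acid oxidation genes Acaa1b (2.16 ± 0.21) and Ehhadh (2.40 ± 0.26) and the acyl-CoA thioesterase gene Acot2 (1.75 ± 0.21). Over the same libraries the summed counts of 12 Kupffer cell and macrophage markers were 2639.8 to 3649.6 in control vehicle and 4324 to 7210.3 in control GW3965 libraries, and 4459 to 5349 against 4577 to 6830.4 with the Gata4LKO label. In the mean of both genotypes 1 of these 12 rose, Cd5l (0.72 ± 0.15), and 1 of 12 endothelial markers, Cdh5 (0.64 ± 0.10), with medians of 0.22 and 0.38. Without control vehicle replicate 1 or replicate 15, 3 Kupffer markers were called, 2 without replicate 5, 9, 14, 16 or 17, and 4 endothelial markers without replicate 16. A response of a marker gene itself to the agonist and more cells of its type cannot be told apart in bulk samples. The Kupffer sums include Cd5l. The part of these markers in the target values was not tested. The mRNA of PPAR alpha itself, as given above, was at 0.05 ± 0.13.

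The counts of the next lists stand against the 1.78% of all genes called in this comparison. Of 18 PXR and CAR targets 0 were called with a median of 0.14. Of 8 thyroid hormone receptor targets 2 rose, Gpd2 (0.64 ± 0.11) and the lipogenic gene Thrsp (1.25 ± 0.25). Of 15 HNF4A targets 1 fell, the sterol 12-alpha-hydroxylase gene Cyp8b1 (-1.62 ± 0.35), which is also in the list of 9 genes with a ROR or REV-ERB response element, and of 7 retinoic acid receptor targets 1 fell, the retinol-binding protein receptor gene Stra6l (-0.60 ± 0.13). Of 12 PGC-1 and ERR targets 1 rose, Pdk4 (1.19 ± 0.29), which the PPARA list holds too. Among 27 further coregulators 1 rose, Tbl1x, a subunit of the NCOR complex (0.34 ± 0.08, limma adjusted p = 0.0357), and among 7 further receptors 0.

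Targets of the glucocorticoid receptor had medians of opposite sign in the 2 genotypes. In controls, 16 of 18 had a negative difference under GW3965 with a median of -0.94, against -0.01 over all genes. Of the 18, 2 fell, Lcn2 (-2.01 ± 0.33) and Lpin1 (-1.94 ± 0.39), where 0.792% of all genes were called. DESeq2 on recovered reads called 5 lower and edgeR 1, and the fit on the 2 groups alone called 0. By limma 1 was called without control vehicle replicate 2, 3 or 4 or control GW3965 replicate 9 or 10, and 4 without replicate 13. With the Gata4LKO label, 12 of 18 were positive with a median of 0.26 and 0 called. All 18 interaction values were positive, with a median of 0.94 against -0.0041 over all genes. The interaction subtracts the control difference given above, so its sign is not independent of that result. With 1 library left out, 2 to 4 of the 18 were positive between genotypes under vehicle, with medians of -0.54 to -0.34. Under GW3965 16 to 18 were positive between genotypes, with medians of 0.24 to 0.51. Medians thus differed by genotype under vehicle too, and the control vehicle libraries enter both the control difference and the interaction. For the interaction 0 were called by limma, where 0.0149% of all genes were, and 0 by edgeR. DESeq2 called 2, as did limma without control GW3965 replicate 13. With low Gm5345 as a covariate the median was -0.33 in controls and 0.23 for the interaction. The receptor's own mRNA, Nr3c1, had 1899 to 2708 normalized counts over all 17 libraries.

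**Figure D5:**
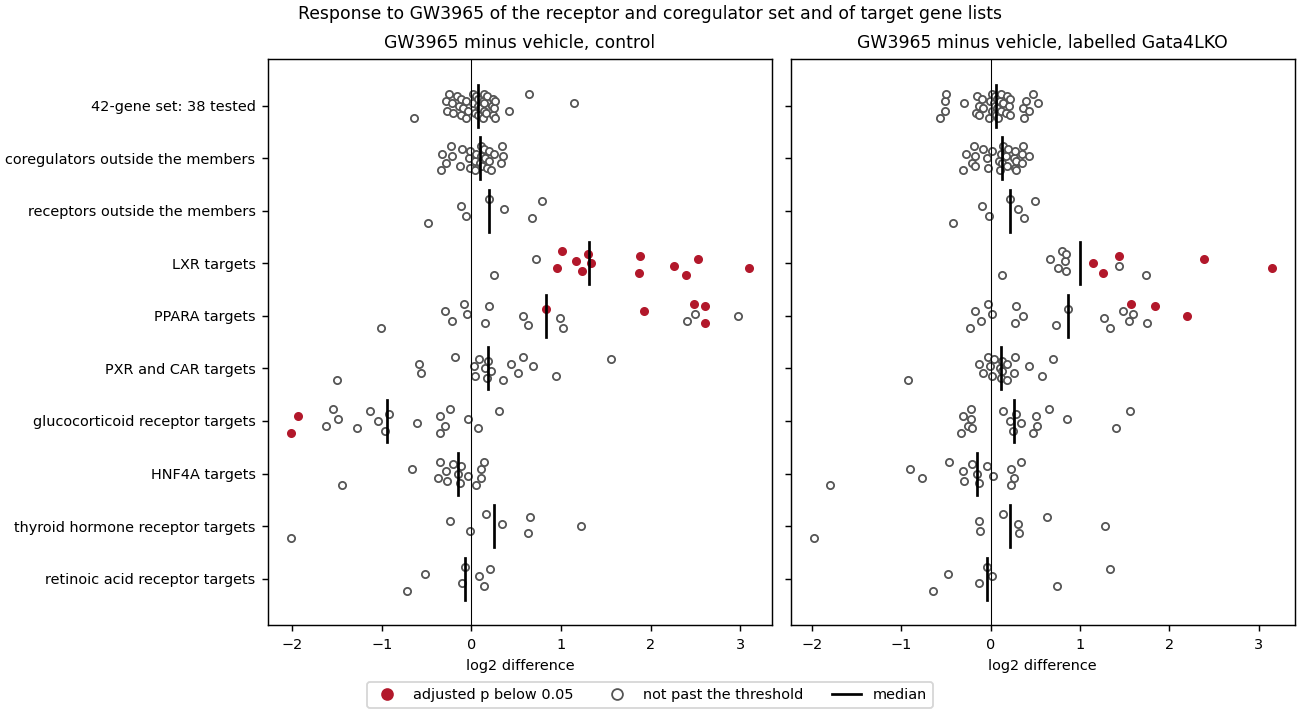
Log2 differences between GW3965 and vehicle in control (left) and labelled Gata4LKO libraries (right), one point a gene, for the 38 tested mRNAs and for lists of further coregulators, further receptors and target genes; filled red points have an adjusted p below 0.05 and black bars are medians. The receptor and coregulator points hold no red and centre near 0, the LXR targets are all to the right of 0, and the glucocorticoid receptor targets centre at -0.94 on the left and 0.26 on the right.

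In the authors' deposited tables of 5 comparisons 36 to 40 of the 42 genes had an adjusted p, and 0 had one below 0.05. Of all genes 51 to 221 did in the tables of the 4 group comparisons and 26 in that of the interaction. Some counts could mix 2 genes, since neither counter nor strand is given in the sources used here: by the GENCODE M21 annotation of mm10, the locus of Thra overlaps that of Nr1d1 on the opposite strand, and those of Rarb and Top2b, Nr1i3 and Tomm40l, Esrra and Trmt112, Ncor1 and Ttc19, Nr2f2 and B130024G19Rik, and Hnf4a and Hnf4aos also overlap on opposite strands. So do those of Ncoa3 and Sulf2, Nr2c2 and Mrps25, Nr2f6 and Ocel1, and Ncor1 and Pigl. The list is not complete.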

How the data were processed

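Liver RNA was sequenced in 17 libraries made with a KAPA mRNA kit, per the labels' protocols. Reads were aligned with STAR 2.6.0c to mm10, per the submitters' processing notes, which list FastQC and DESeq2 too. Counter, annotation and strand setting were not given in the sources drawn on. The authors deposited a signal table of gene counts divided by 1 size factor per library, in which 100% of values were whole multiples of 1 read to within 0.05 read. They also deposited log2 fold changes and p-values of 5 comparisons, with no design stated, and these were used only as named.

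Groups follow the sample titles, since the treatment tag of 8 libraries contradicts them; each table the samples' descriptions list goes with the titles. The labels do not say that the libraries came from separate mice, so p-values measure the spread between these libraries. The normalized counts were tested with limma 3.58.1 in R 4.3.3 on log2(value + 1), trend on, with 1 coefficient for each of the 4 groups over all 17 libraries and Benjamini-Hochberg adjustment over 13379 genes with at least 10 in at least 4 libraries; a log2 difference understates the change of low genes. The comparisons share groups, so a difference in 1 group enters several. The steps were tested on data simulated for each of the 4 group comparisons. Of 100 2-fold changes 62% to 72% were recovered, and of 100 4-fold changes 95% to 98%, with 3 to 8 false calls. The changed genes were not drawn from those with the lowest means. A missing call therefore does not exclude a 2-fold change. Alternatives were pseudocounts of 0.5 and 5, no filter, edgeR 4.0.16 and DESeq2 1.42.0 on recovered reads, only the groups compared, omission of the 5 libraries with a mitochondrial share above 10%, TMM scaling without the mitochondrially encoded genes, that share as a covariate, and each library left out in turn. Added after the data were seen were omission of the 2 libraries with the fewest genes above 0 and low Gm5345 as a covariate. That covariate varied within control GW3965 alone, replicates 9 and 10 against 12 and 13. Values in full go to Nr1h3, Nr1h2, Rxra and the 3 genes with the lowest p in each comparison; of target lists, up to 4 called genes by lowest p are named, and 1 such gene is not reported here. The genes, the target lists and the marker lists were chosen with earlier results of these data known. Lengths, loci and transcript GC content are from GENCODE M21, and promoters from RefSeq.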

Additional observations from a re-analysis of the deposited data

Results flagged for a closer look

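In 152 sets of 1 gene in 1 group, 10 held a library that stood apart from the rest of its group by more than Dixon's 95% critical value allows, where chance gives about 1 in 20, or 7.6. Of the 10, 3 were in libraries with a high mitochondrial share: Ncor1 at 4147 normalized counts in control vehicle replicate 1, Pparg at 204 in replicate 17 and Hnf4a at 12222 in replicate 18, both labelled Gata4LKO with GW3965.

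Replicate 6, labelled Gata4LKO with vehicle, had the highest Nr2f6 value of its group at 919.5 and the lowest Nr5a2 value at 1357. Replicate 16, labelled Gata4LKO with GW3965, had the lowest Nr2c2 value at 641 and the lowest Nr3c1 value at 1899. These 2 libraries were also those with the fewest genes above 0. Nr3c1 was highest in control GW3965 replicate 9, at 2708. In control vehicle, Nr2f1, which encodes COUP-TF1, was lowest in replicate 3 at 8.52, and Nr4a1, an immediate early gene, was highest in replicate 2 at 37.9.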

How the results depend on the processing

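Over 29 settings and 200 pairs of setting and comparison, 0 of the genes were called. No paired analysis was possible because the groups share no replicate numbers. For 24 pairs of a named gene and a comparison, 247 values under other settings and 408 with 1 library left out kept their direction and their side of the threshold, and 5 reversed. Since 0 were called under any setting, keeping the side of the threshold means only staying uncalled. Most of the pairs were chosen by lowest p in these same data, so the tally does not test them. With low Gm5345 as a covariate Nr3c2 turned to -0.061 between genotypes under vehicle and to 0.0019 under GW3965 in libraries labelled Gata4LKO, and Nr2f2 to -0.11 between genotypes under vehicle and to 0.22 for the interaction. The effect of that covariate is estimated within the control GW3965 libraries alone. Without the 5 libraries of high mitochondrial share Nr1h2 was at 0.034 under GW3965. The cause was not tested.

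With 1 library left out, the log2 difference under GW3965 ran from -0.17 to -0.09 for Nr1h3 and from 0.50 to 0.80 for Esrrg, in the mean of both genotypes. Low counts limit Nr4a1, Nr2f1 and the 4 genes that did not pass the filter.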
